A study of Caenorhabditis elegans with 2 samples.

Results

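The genes examined were 34 genes of sensory cilia and intraflagellar transport, out of 19973 protein-coding genes of *Caenorhabditis elegans*. They comprised 33 structural genes and *daf-19*, the transcription factor gene that regulates them, which was kept apart. Membership was a list of gene names, and the rule itself used no binding value. The measurement was chromatin immunoprecipitation with sequencing (ChIP-seq) of PROS-1, the worm relative of the fly homeodomain protein Prospero, tagged with eGFP. There was a single group of 2 biological replicates, made from late embryos of strain OP500, taken whole and with both sexes pooled. The strain carries the *unc-119(tm4063)* III allele and the transgene wgIs500, which supplies the tagged *pros-1*. The design held no other genotype, stage or treatment, so the members were described beside all protein-coding genes and no conditions were compared.

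Cilia of the worm are found on sensory neurons, where they form the endings that detect odours, touch and other cues. They are built by intraflagellar transport (IFT), in which kinesin motors carry IFT complex B and complex A particles outward and a dynein motor returns them, while the BBSome adaptor holds the trains together and the transition zone gates entry at the base. DAF-19, a factor of the RFX family, switches on most of these genes through a short promoter element called the X-box. The worm Prospero protein is best known from the glial cells that ensheathe the ciliated endings. Whole embryos mix many cell types, so binding in few cells and weak binding in many cells could not be told apart.

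Each gene was searched in its body and in a promoter window that reached 1000 bp upstream and 200 bp downstream of each of its transcript starts. The deposited lists read numbered 4: the candidates of replicate 1, those of replicate 2, those of both pooled, and the peaks that passed the irreproducible discovery rate (IDR), a filter based on how reproducibly peaks are ranked. Each candidate list held 30000 regions, background included, and the IDR list held 737 peaks. The strength of a peak was its deposited signal value, whose scale was not stated and which was compared only within a list. Signal ran from 5.55 to 127.1 in the pooled list, from 2.09 to 36.0 in replicate 1 and from 4.02 to 120.5 in replicate 2. The weakest IDR peak had a signal of 26.4. The signals of the IDR peaks were those of the 737 strongest pooled candidates, so these lists are not separate support. No read counts were used here, so the depth of either library is unknown, and each interval below covers counting error over genes alone.

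The promoter of *daf-19* carried a PROS-1 peak in every list, and the promoters of the 33 structural genes carried none that passed IDR. That is 1 of the 34 genes, beside 2.55% of all protein-coding genes, so the list as a whole was not distinguished from that share. The sequence around the *daf-19* peak is shown because it holds the summit, matches to a short GA repeat and an X-box in a single stretch. Capitals mark matches to GAGAGAG on either strand and, nearest the gene, the X-box. The stretch covers chrII:10169411-10169710 of WBcel235, minus strand, 5′ to 3′ toward the gene.
*daf-19*: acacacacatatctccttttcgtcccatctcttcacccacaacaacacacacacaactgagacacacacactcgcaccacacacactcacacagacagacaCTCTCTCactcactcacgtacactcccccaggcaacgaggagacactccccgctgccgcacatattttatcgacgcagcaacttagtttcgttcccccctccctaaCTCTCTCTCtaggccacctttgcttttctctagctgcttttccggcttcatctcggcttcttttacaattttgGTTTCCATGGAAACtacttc
The summit is base 102 of this stretch, the first base of the first GAGAGAG match, and the X-box runs from base 281 to 294. The next pair of sequences shows 2 structural promoters at their own pooled summits, with the X-box in capitals. The summit is base 51 in both. The *che-2* stretch is chrX:481272-481372 on the plus strand and the *klp-11* stretch is chrIV:8762581-8762681 on the minus strand.
*che-2*: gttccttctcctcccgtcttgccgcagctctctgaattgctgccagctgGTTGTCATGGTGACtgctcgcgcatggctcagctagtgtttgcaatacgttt
*klp-11*: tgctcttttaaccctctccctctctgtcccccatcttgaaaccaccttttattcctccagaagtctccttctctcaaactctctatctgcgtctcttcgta
The X-box of *che-2* runs from base 50 to 63 and so covers the summit of a weak candidate. The *klp-11* stretch, taken at the strongest candidate of any motor gene, held neither an X-box nor GAGAGAG.

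*daf-19* (WBGene00000914) lies on the minus strand at chrII:10157520-10169346. Its IDR peak spanned chrII:10169447-10169770 and its summit lay 263 bp upstream of the first transcript start. The pooled signal was 45.8, rank 209 of 30000, with a q-value of 0.000783. That is the lowest q-value of the pooled list, and 639 of the 737 IDR peaks share it. In replicate 1 the signal was 11.8, rank 278, with a q-value of 0.00429. In replicate 2 the signal was 32.8, rank 258, with a q-value of 0.000529. The *dyf-2* promoter candidate of rank 841 in replicate 2 had this same q-value. The summits of the pooled list and replicate 2 fell on the same base, and that of replicate 1 lay 56 bp away. The peak was therefore near the top of both replicates' own lists. A stronger promoter summit was found at 149 other protein-coding genes in the pooled list, at 182 in replicate 1 and at 176 in replicate 2. The nearest gene upstream, *gpd-4*, which encodes a glycolytic dehydrogenase, begins 1659 bp from the summit, beyond its own promoter window.

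The peak sat at the start shared by the long isoforms of *daf-19*. Isoforms a and b begin 263 bp and 264 bp downstream of the summit, and isoforms d and e begin 5157 bp and 6033 bp downstream of the summit. Isoform c, which encodes the form known to drive ciliary genes, begins 7936 bp downstream. The long isoforms are known from neurons without cilia, where they help to maintain synaptic proteins. The other 5 pooled candidates along *daf-19* had signals of 5.76 to 9.81 and q-values of 0.473 to 0.843. Of these, 1 lay in the promoter window of isoform c, with a signal of 5.86 and rank 27580. Elsewhere in that window, replicate 1 had a candidate of signal 5.22, rank 4640, with a q-value of 0.114. Replicate 2 had one of signal 6.995, rank 11452, with a q-value of 0.273. These summits were not within 100 bp of each other. They lay 7079 bp (pooled), 7292 bp (replicate 1) and 6974 bp (replicate 2) past the first start. No candidate near the start of isoform c reached the IDR list.

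**Figure D1:**
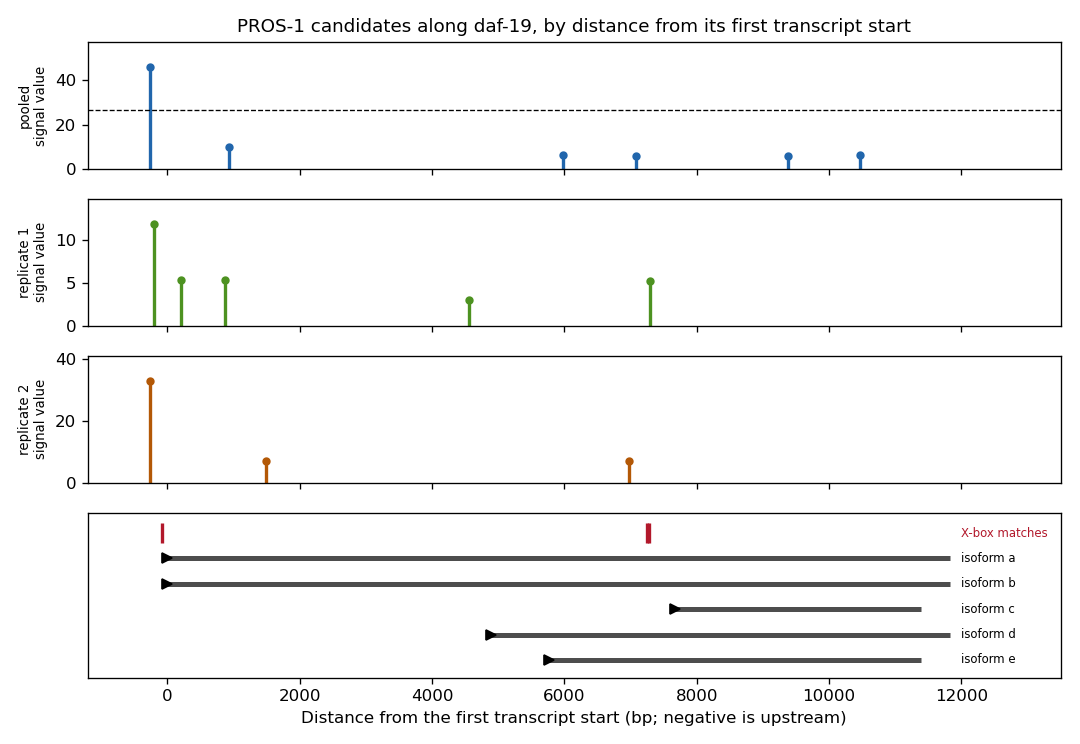
Signal of each PROS-1 candidate along *daf-19* (vertical axes, deposited signal in the pooled list and in replicates 1 and 2) against distance from the first transcript start in bp, negative upstream. The dashed line is the weakest IDR peak at 26.4, the lower panel shows transcripts a to e and X-box matches, and the tallest candidate of each list lies 207 to 263 bp upstream.

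There were 3 X-box matches in the promoter windows of *daf-19*. The one shown above is centred 77 bp upstream of the first start and reads the same on both strands. The pooled summit lay 179 bp from the end of this match, and the edge of the IDR peak lay 17 bp from it. The X-box was thus outside the IDR peak, although the wider candidate of replicate 1 reached over it. Another pair of matches lay 400 bp and 420 bp upstream of isoform c. The replicate 1 candidate of rank 4640 had its summit 19 bp and 39 bp from this pair. The nearest pooled summits were 194 bp and 174 bp from them. Within 50 bp of the pooled summit the GC content was 56.4%, beside a median of 52.5% over IDR summits and 40.6% over all pooled candidates. GAGAGAG occurred within 50 bp of 17.9% of IDR summits and of 4.24% of all pooled summits, so *daf-19* carried a motif held by a minority of the IDR list.

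None of the 33 structural genes had an IDR summit in its promoter window, where 2.55% of all protein-coding genes had one. A count of 0 of 33 allows a share of up to 9.09%, and the exact 95% Clopper-Pearson interval reached 10.6%. At the share of all genes, 0.841 genes would have been found, so the count could not be distinguished from the background at this list size. Adding the gene bodies left the count at 0 of 33, beside 3.10% of all genes. The 737 strongest candidates of each replicate alone gave 0 of 33 in promoters as well, beside 2.21% of all genes for replicate 1 and 2.37% for replicate 2. With gene bodies added the counts stayed at 0 of 33, beside 3.05% and 2.97% of all genes. The nearest IDR summit to a start of a structural gene was at a median of 54519 bp, beside 56643 bp over all genes. It lay within 10000 bp for 3 genes (9.09%), beside 12.9% of all genes. These were *kap-1* at 3369 bp, *dyf-11* at 4523 bp and *dyf-6* at 5718 bp.

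Below the IDR threshold, weak candidates lay in structural promoters at shares close to those of all genes, and in the longer gene bodies at higher shares. A pooled candidate of any strength lay in the promoter of 15 of 33 (45.5%), beside 41.9% of all genes. Replicate 1 gave 16 of 33, beside 40.4%, and replicate 2 gave 18 of 33, beside 41.2%. With gene bodies, the pooled count was 25 of 33 (75.8%), beside 62.6% of all genes. Replicate 1 then gave 29 of 33 (87.9%, exact 95% interval 71.8% to 96.6%), beside 64.4%, and replicate 2 gave 27 of 33, beside 62.6%. The structural genes were longer, with a median of 5172 bp beside 2027 bp. Per kb searched they held 0.331 pooled summits, beside 0.320 for all genes. In promoters alone the density was 0.411 summits per kb, beside 0.375.

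Promoter strengths were near those of other genes. The strongest promoter candidate had a median signal of 9.05 over the 15 structural genes with one, with a range from 5.79 to 20.3. The median over the 8373 genes with one was 9.13. With bodies included, the median was 11.1 over 25 genes, beside 9.48 over 12511 genes. Among the 3000 strongest pooled candidates, 3 structural promoters were represented (9.09%), beside 8.24% of all genes. With gene bodies the count was 4 of 33 (12.1%), beside 11.5%. Of the 81 pooled summits counted gene by gene, 23 lay in promoter windows, 29 in introns, 28 in coding exons and 1 in a 3′ UTR, that of *dyf-11*.

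**Figure D2:**
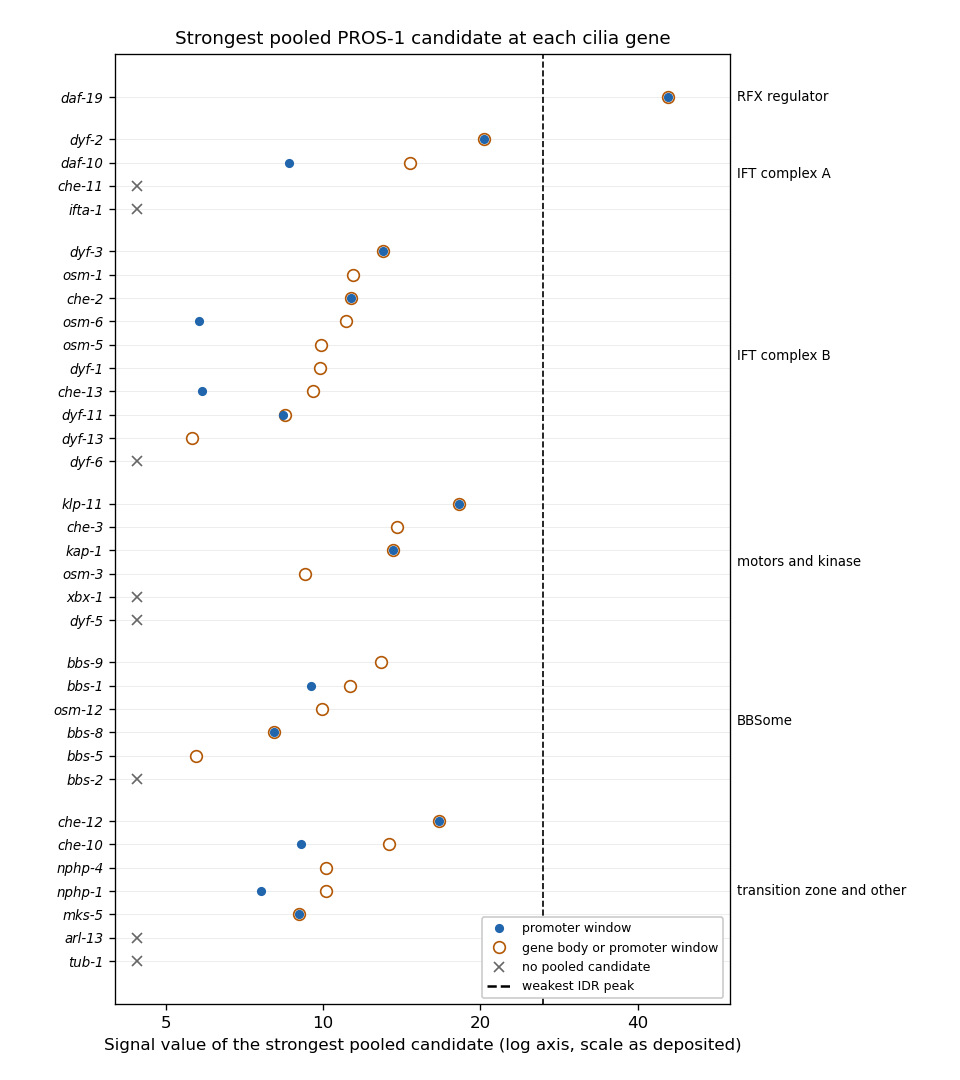
Strongest pooled candidate of each of the 34 genes, with the deposited signal on a log axis and genes grouped by role. Filled points are promoter windows, open circles add the gene body, crosses mark genes with no pooled candidate, and of these 34 only *daf-19* at 45.8 lies beyond the dashed line of the weakest IDR peak at 26.4.

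**Figure D3:**
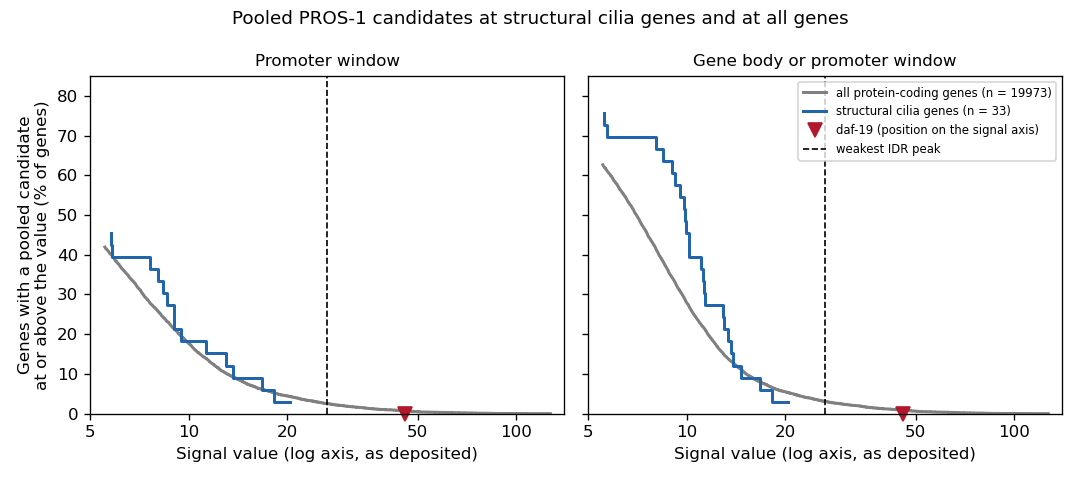
Percent of genes (vertical axis) with a pooled candidate at or above each signal value (log horizontal axis), for the 33 structural cilia genes and all 19973 protein-coding genes, in promoter windows on the left and with gene bodies on the right. The structural curves end at 20.3, below the weakest IDR peak at 26.4, while *daf-19* is marked at 45.8.

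Complex A returns IFT trains toward the cell body and 2 of its 4 genes had a pooled candidate in the body or promoter, beside 62.6% of all genes. *dyf-2* encodes a core complex A subunit and had the strongest candidate of any structural gene, at III base 13687324, 879 bp upstream of its start. Its pooled signal was 20.3, rank 1276, with a q-value of 0.0161. Replicate 2 had the same site 1 bp away at 19.5, rank 841, and replicate 1 had no candidate within 100 bp. That summit lies 55 bp inside the start of *cul-2*, a cullin gene of the ubiquitin system, and so in the promoter window of that neighbour as well. *daf-10* encodes another complex A subunit and had a pooled candidate of 14.7, rank 2908, in an intron 831 bp past its start. The nearest start of any gene was that of *flp-1*, a neuropeptide gene, 667 bp away. Replicate 2 had it at 12.1, rank 2654, and replicate 1 had none within 100 bp. The promoter candidate of *daf-10* was weaker, at 8.59. *che-11* and *ifta-1*, the remaining complex A genes, had no pooled candidate. In *che-11* a replicate 2 candidate of 8.19, rank 7774, lay 48 bp upstream of the start, while the candidate of replicate 1 was in a coding exon at 2.54. *ifta-1* had a candidate in replicate 1 alone, in a coding exon at 3.69.

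Complex B carries cargo toward the ciliary tip, and 9 of its 10 genes had a pooled candidate in the body or promoter, beside 62.6% of all genes. A promoter candidate was found at 5 of the 10, beside 41.9%. *dyf-3*, which is needed for ciliary assembly, had the strongest promoter candidate of these, 38 bp upstream of a start. Its pooled signal was 13.03, rank 4048, and replicate 2 had it at 8.64, rank 6748. The strongest replicate 1 candidate of *dyf-3*, at 6.14 and rank 2654, lay elsewhere, 158 bp upstream. The same pooled summit lies in the promoter window of *pdhb-1*, a gene of the pyruvate dehydrogenase complex. *osm-1* encodes the largest complex B subunit and had a candidate of 11.4, rank 6065, in a coding exon 8313 bp past its start. Replicate 2 had that site at 7.28, rank 10404, and replicate 1 had none within 100 bp. *che-2* followed just outside the 10 strongest genes. Its pooled signal was 11.3, rank 6232, at 128 bp upstream, with a value of 10.6, rank 3858, in replicate 2 at a summit 41 bp away. The strongest promoter candidate of *che-2* in replicate 1 was 3.64, rank 12455, at 827 bp upstream. The other complex B genes, *osm-5*, *osm-6*, *che-13*, *dyf-1*, *dyf-11* and *dyf-13*, had pooled maxima between 5.60 and 11.1. *dyf-6* had no pooled candidate, with 3.09 in replicate 1 and 4.79 in replicate 2 at different promoter sites.

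The motors and their kinase gave 4 of 6 genes with a pooled candidate in the body or promoter, again beside 62.6% of all genes. *klp-11* encodes a motor subunit of heterotrimeric kinesin-II, which moves trains along the first part of the cilium. Its candidate at IV base 8762631, 565 bp upstream, had a pooled signal of 18.2, rank 1613, with a q-value of 0.0332. Replicate 2 had it at 18.02, rank 990, and replicate 1 had none within 100 bp, its own strongest being 5.93, rank 2988, at 312 bp upstream. The gene *F20C5.11* shares that summit in its promoter window. *kap-1* encodes the non-motor subunit of the same kinesin. Its pooled candidate had a signal of 13.6, rank 3567, at 772 bp upstream, and replicates 1 and 2 had weak candidates of 2.41 and 6.05 nearby. Replicate 1 had a stronger one at 71 bp upstream of *kap-1*, of 8.09 and rank 983, with a q-value of 0.0107. That was the best rank of any structural gene in replicate 1, still outside its 737 strongest. *che-3* encodes the heavy chain of the returning dynein and had a candidate of 13.9, rank 3400, in a coding exon 19336 bp past its start. That site lies 368 bp upstream of the neighbour *F18C12.4*. Replicate 1 had it at 3.12, rank 16942, and replicate 2 had none within 100 bp. *osm-3*, the kinesin that extends the distal tip, reached 9.25 in a coding exon. *dyf-5*, a kinase that limits cilium length, had no pooled candidate and *xbx-1*, a dynein light intermediate chain, had no candidate in any list. Over all genes, 17.6% had none in any list, beside 1 of 33 structural genes (3.03%).

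The BBSome links membrane cargo to IFT trains, and 5 of its 6 genes had a pooled candidate in the body or promoter, beside 62.6% of all genes. In promoters the count was 2 of 6, beside 41.9%. *bbs-9*, a core subunit, had a candidate of 12.9, rank 4167, in an intron just past its start. Replicate 1 had that site at 2.81, rank 20311, and replicate 2 had it at 7.56, rank 9495. It was thus found in both replicates but weak in each. *bbs-1*, whose product helps to recruit cargo, reached 11.3, rank 6268, in an intron 2217 bp past its start, with 8.92 in replicate 2 and no match in replicate 1. *osm-12*, *bbs-8* and *bbs-5* reached 9.93, 8.06 and 5.72. *bbs-2* had a single candidate, of 3.39 in replicate 1, 26 bp upstream of its start.

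Transition zone and other ciliary genes gave 5 of 7 with a pooled candidate in the body or promoter, beside 62.6% of all genes. With 4 to 10 genes in each role, none of these counts is read as particular to a role. *che-12* encodes a HEAT-repeat protein of sensory cilia. Its candidate at V base 10303945, 165 bp upstream of an internal start, had a pooled signal of 16.7, rank 2001, with a q-value of 0.0617. Replicate 1 had it at 3.80, rank 11272, with its summit 62 bp away, and replicate 2 had it at 12.4, rank 2488, on the same base. *che-10* encodes rootletin, the protein of the fibre that anchors the cilium, and had a candidate of 13.3, rank 3777, in a coding exon 5099 bp past its start. Replicates 1 and 2 had that site at 4.44 and 4.82. In the promoter of *che-10*, 703 bp upstream, the pooled signal was 9.05 and replicate 1 had 6.68, rank 1965, on the same base. *nphp-1* and *nphp-4*, which build the transition zone, reached 10.1 each, within a coding exon and an intron. *mks-5*, a scaffold of the same structure, had 8.999 at 52 bp past its start, with 10.8 in replicate 2 on the same base. *arl-13*, a small GTPase of the ciliary membrane, and *tub-1*, a Tubby protein that regulates ciliary receptors, had no pooled candidate. *arl-13* had 3.24 in replicate 1 and 5.86 in replicate 2 at different promoter sites, and *tub-1* had 2.69 in a coding exon of replicate 1.

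The place of the strongest promoter candidate was compared between the replicates. Both replicates had a promoter candidate at 12 of 33 genes (36.4%), beside 22.4% of all genes. The strongest summits lay within 100 bp of each other at 1 of those 12 (8.33%), which was *che-12*. Over all genes with a candidate in both replicates, 1447 of 4483 (32.3%) had them together. Those of *daf-19* were 56 bp apart. All genes include those with IDR peaks, which no structural gene had, so signal was not matched. The difference, from 12 genes, was not tested. Weaker candidates were left out of this count. At *kap-1*, replicates 1 and 2 had candidates 95 bp and 85 bp from the pooled summit, although the strongest of replicate 1 lay elsewhere.

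X-box matches were common in the structural promoters, and few had a pooled PROS-1 summit within 100 bp, as over all promoters. A 14-base X-box match lay in the promoter window of 22 of 33 structural genes (66.7%), beside 11.9% of all genes. The X-box is the known element of these genes, so that share describes the list and is not a result of the ChIP-seq. The X-boxes below are shown because they come from well-studied ciliary promoters that differ in how close a candidate lay. Each is printed on the strand of its gene, with the X-box in capitals and 8 flanking bases on either side.
*osm-5* (chrX:2984163-2984176): cttacataGTTACTATGGCAACgctccgct
*osm-6* (chrV:11927493-11927506): atccacatGTTACCATAGTAACcactcatt
*xbx-1* (chrV:14980275-14980288): gaacgcccGTTTCCATGGTAACcgtcattt
*che-11* (chrV:12150761-12150774): cgagcaaaATCTCCATGGCAACcaaaacac
*dyf-3* (chrIV:3399198-3399211): tgcagggaGTTTCTATGGGAACggaggaaa
For *osm-5* the nearest pooled summit was 921 bp from the X-box, while a replicate 2 candidate of 4.75, rank 23819, was 29 bp away. For *osm-6* the nearest pooled summit was 134 bp away, with a signal of 5.79. For *xbx-1* no pooled summit was nearer than 4617 bp. For *che-11* the replicate 2 candidate of 8.19 had its summit 12 bp from the X-box, and the nearest pooled summit was 3845 bp away. For *dyf-3* the pooled candidate of 13.03 had its summit 65 bp away. These sites show that an X-box was present with and without a nearby candidate.

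None of the 25 X-box sites of structural genes had an IDR summit within 100 bp, beside 0.128% of the 2337 sites of all promoters. That 0 was fixed by the promoter counts, since no start of these genes had an IDR summit nearer than 3369 bp. A pooled summit lay within 100 bp of 2 sites (8%), those of *che-2* at 5 bp and *dyf-3* at 65 bp, beside 6.33% of all sites. Replicate 1 gave 1 site (4%), that of *daf-10* at 47 bp, beside 6.205%. Replicate 2 gave 6 sites (24%), beside 6.59%. The 6 were those of *osm-5*, *che-2*, *che-11*, *dyf-3*, *dyf-5* and *bbs-1*, and their replicate 2 candidates had signals from 4.75 to 10.6. None of these structural sites had a candidate within 100 bp in both replicates. The difference between the replicates was not tested.

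**Figure D4:**
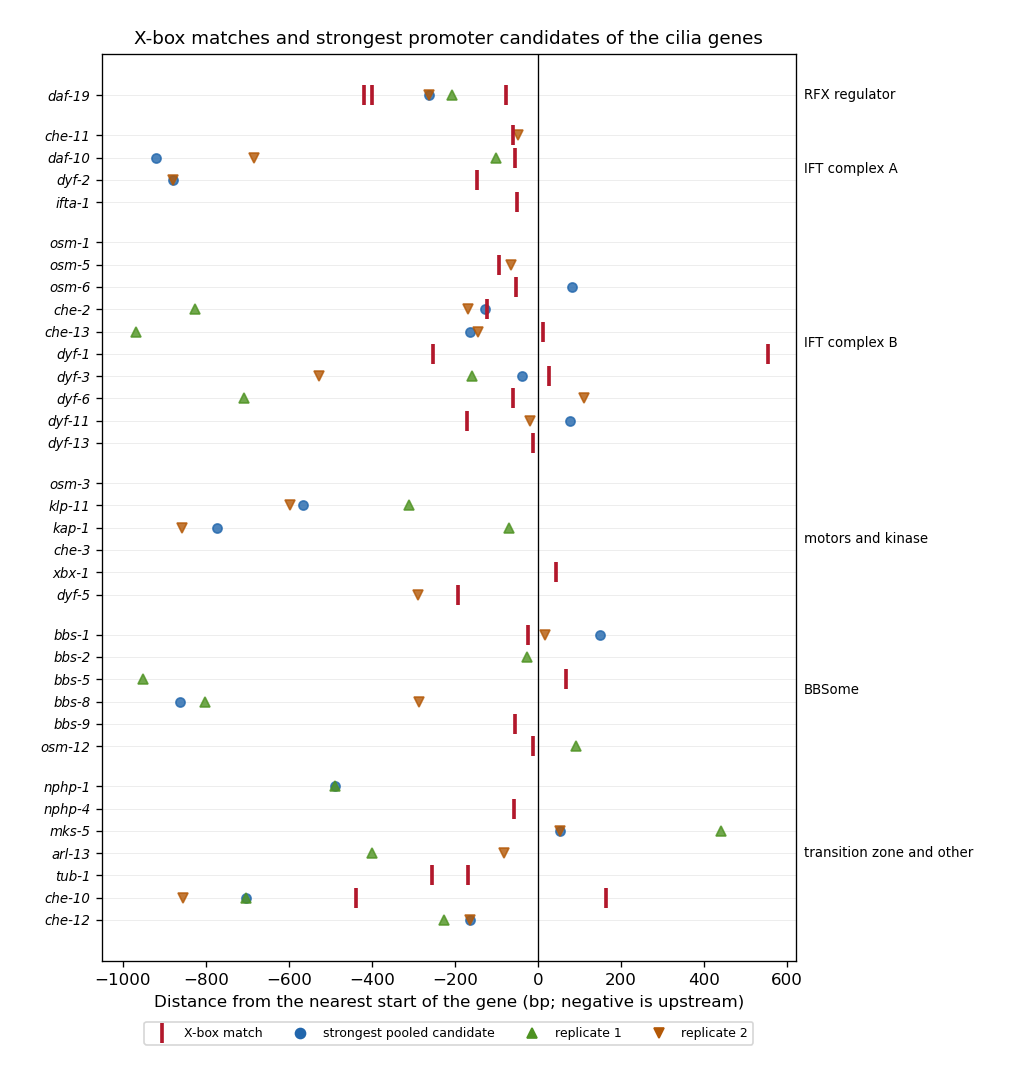
Position of X-box matches (red bars) and of the strongest promoter candidate in the pooled list, replicate 1 and replicate 2 for each of the 34 genes, in bp from the nearest start of the gene, negative upstream. X-box matches gather near the starts, and 2 of the 25 structural matches lie within 100 bp of a pooled summit.

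Short motifs searched on both strands within 50 bp of the strongest pooled summit of each structural gene gave counts at the level of all pooled candidates. GAGAGAG and GGGCGG were found at 0 of 25 summits, beside 4.24% and 3.32% of all pooled candidates and 17.9% and 8.41% of IDR peaks. AAGACG was found at 1 summit (4%), that of *che-2*, beside 4.61% and 7.06%. AAGGCG was found at 0 of 25, beside 3.23% and 5.70%. With 25 summits, counts of 0 and 1 cannot be distinguished from the shares over all pooled candidates. The median GC content around these summits was 39.6%, with a range from 21.8% to 70.3%.

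A wider list of 52 other cilia genes gave 1 gene with an IDR summit in its promoter (1.92%, exact 95% interval 0.0487% to 10.3%), beside the 2.55% of all genes. This was *ift-43*, which encodes a complex A subunit, with a peak at chrII:5661045-5661368 and a summit 421 bp upstream of its start. The pooled signal was 38.7, rank 319, and replicate 2 had 40.1, rank 162. Replicate 1 had no candidate within 100 bp, its strongest being 4.41, rank 7771, at 252 bp upstream, so this IDR peak was not ranked alike in the replicates. The pooled summit lies 26 bp inside the start of *mdt-26*, a gene of the Mediator complex, so that it is in both promoter windows. The next in pooled promoter signal were *hyls-1*, a centriole gene, at 21.9, *tmem-107*, a transition zone gene, at 17.8, *klp-20*, the partner motor of *klp-11*, at 17.5 and *rpi-2* at 17.2. Of these, *tmem-107* shares its summit with *rps-26*, a ribosomal protein gene, and *hyls-1* with *hpo-9*. X-box matches lay in the promoters of 28 of the 52 (53.8%), beside 11.9% of all genes, a share that again describes the list. A pooled summit lay within 100 bp of 7 of their 32 sites (21.9%), beside 6.33% of all sites. Replicate 1 gave 6 sites (18.8%), beside 6.205%, and replicate 2 gave 8 (25%), beside 6.59%. These differences were not tested.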

How the data were processed

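PROS-1 ChIP-seq peak lists of 2 biological replicates of 1 group were analysed, with the replicate numbers taken from the labels. The authors called candidate regions, background included, for each replicate and for the pooled alignments, and thresholded them by IDR, per the file headers and deposited notes. The caller, its version, the aligner and the IDR threshold are not given in the sources used here. The deposited signal value is a score on an unstated scale. The deposited significance column was read as the −log10 of the q-value, from the order of columns in the peak format. Lists in ce11 were used, and those in ce10 were not used here.

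Summits were placed on WBcel235 (the assembly called ce11) with gene models of Ensembl release 115, and sequence came from the RefSeq copy of that assembly. A summit counted for a gene if it lay in the gene body or within 1000 bp upstream or 200 bp downstream of a transcript start. Summits within 100 bp counted as shared. No test was made, since there was 1 group. Counts stand beside the same over 19973 protein-coding genes, with exact binomial intervals (SciPy 1.17.1). Nothing was adjusted for gene length. The scripts (Python 3.11.15, pandas 2.3.3, NumPy 2.4.6) were tested on simulated peaks at known positions.

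All 34 members are accounted for. *daf-19* and the 10 structural genes with the strongest pooled candidate were described in full, along with genes that share a summit with them. Of 57 other cilia genes listed, 52 were found by name, and *ifta-3*, *dyf-8*, *dyf-9*, *dyf-10* and *dyf-14* were not matched. The members and lists were chosen with earlier results of these data known.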

Additional observations from a re-analysis of the deposited data

How the results depend on the processing

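The count of structural genes with an IDR summit stayed at 0 with windows of 500 to 100 bp and 2000 to 500 bp. It also stayed at 0 with peak overlap in place of summits and with the 369 strongest IDR peaks (range 0 to 0). Without either replicate, the 737 strongest candidates of the other replicate took the place of the IDR list, and the count was 0. With the strongest 3000 pooled candidates in place of the IDR list it became 3 in promoters and 4 with gene bodies, the other cilia genes went from 1 to 5, and all protein-coding genes went from 509 to 1645. The 369 strongest IDR peaks gave 245 of all genes. Structural genes with any pooled promoter candidate numbered 15, and 23 with the window of 2000 to 500 bp. The single gene with strongest summits together in both replicates became 0 with a limit of 50 bp and 0 with the window of 2000 to 500 bp. The *daf-19* signal was 11.8 in replicate 1's own list and 32.8 in that of replicate 2. Signals are compared only within a list, so these are not read as a change of the peak. It ranked 278 and 258 in those lists. The X-box was found at 22 structural promoters (66.7%, beside 11.9% of all genes), at 19 with A alone at the seventh base (57.6%, beside 4.53%) and at 32 with a mismatch allowed (97.0%, beside 76.3%), where the contrast with all genes was much smaller. The cause of these shifts was not tested. In all, 38 of the recomputed values stayed within the limits set and 9 did not. The limit was a fixed fold change for counts and the standard deviation between the replicates for signals. Of the 9, 1 was the *daf-19* signal of replicate 1, set against that of the pooled list. The 38 include the values above that could not have moved.

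Depth is unknown, so a site with no candidate is not shown to lack binding. The lists stop at 30000 regions, which sets the weakest signal listed. The candidate lists include background, per the labels, and genes close to each other share summits. No paired analysis was possible because there was 1 group.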
